A study of Mus musculus with 12 samples.

Results

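Kinesins, cytoplasmic dynein and dynactin are the machines that move cargo along microtubules, and a subset of kinesins builds and runs the mitotic spindle. The motor genes were all probes whose annotated symbol begins with Kif and a number, Kifc, Kifap, Klc and a number, Dync, Dynl or Dctn. These were 111 of the 44505 probes on the array and 53 of the 17056 named genes. A probe was tested if its detection p-value was under 0.01 on at least 2 of the 12 arrays, which kept 57 motor probes and 38 motor genes, and 49 motor probes were detected on no array. Each gene is represented by its brightest tested probe. Sorted by role, 23 of the 38 genes belong to long-range transport (10 kinesins, 3 kinesin accessory subunits, 4 cytoplasmic dynein 1 subunits and 6 dynactin subunits) and 7 are mitotic kinesins. The other 8 are 5 dynein light chains, the ciliary dynein heavy chain gene Dync2h1, and the kinesins Kif2a and Kif24.

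RNA was profiled on Illumina mouse expression BeadChips in immortalised striatal cells, a model of Huntington's disease in which the mutant line came from homozygous knock-in mice with 109 CAG repeats in the Hdh allele (Hdh109/109) and the control line from mice with 7 CAG repeats (Hdh7/7). Each line was transfected with a construct labelled DNRest, transfected with an empty vector, or left untransfected, with 2 arrays in each of the 6 groups. In the study DNRest is a dominant-negative form of REST, a repressor of neuronal genes, and the labels give only its name. There was 1 line per genotype, so the repeat length and any other difference between the lines cannot be told apart. The groups follow the array titles and genotype characteristics, while 6 of the 12 arrays carry a source name of the opposite genotype. The labels do not say whether the replicates were separate cultures, so each p-value reflects only array-to-array spread, which may be technical.

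The arrays detected 10295 to 14370 probes, and 46 to 56 of the motor probes. Median raw signals were 70.2 to 82.7 on 9 arrays, and 161 on Hdh7/7 empty vector replicate 2, 156 on Hdh109/109 untransfected replicate 2 and 104 on Hdh109/109 DNRest replicate 1. Of 15 striatal neuron markers with a probe, 6 were detected on both arrays of every Hdh109/109 group and 2 to 3 in the Hdh7/7 groups. Fibroblast and mesenchymal markers numbered 7 of 9 in each Hdh109/109 group and 2 to 4 of 9 in the Hdh7/7 groups. Neural progenitor markers numbered 2 of 8 in each Hdh109/109 group and 4 to 5 in the Hdh7/7 groups, and pan-neuronal markers 3 to 4 of 10 and 2 to 4. In every group 2 of 6 astrocyte, 1 of 7 oligodendrocyte, 1 of 6 endothelial and 0 of 6 microglia markers were detected. These marker differences run with every line difference below, and their part in it was not tested. In these cultures, fewer cells of a type and less RNA per cell cannot be told apart.

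Kinesin-1 pairs heavy chains of the Kif5 genes with light chains of the Klc genes and carries vesicles and organelles toward the cell periphery. Cytoplasmic dynein 1, with its activator dynactin, carries cargo the other way, toward the cell centre. Huntingtin, the protein of the gene with the repeat, binds this machinery directly and through its partner Hap1, and axonal transport is one of the processes studied in Huntington's disease. Mitotic kinesins are transcribed mainly in dividing cells, late in the cell cycle, through CCAAT boxes and cell cycle homology regions (CHR) near their start sites.

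Promoter windows are shown for 5 motor genes, the transport genes Kif5c and Dync1h1 and the mitotic genes Kif15 and Kif2c, which held the lowest and highest line difference of their roles, and Kif18b, which holds both cell cycle motifs. Each runs from 250 bases before to 50 after the RefSeq start in GRCm38.p6, on the gene's strand. The Kif5c window is chr2:49619036-49619335 (plus strand), the Dync1h1 window chr12:110601145-110601444 (plus), the Kif15 window chr9:122950831-122951130 (plus), the Kif2c window chr4:117178723-117179022 (minus) and the Kif18b window chr11:102925075-102925374 (minus). Capitals mark CCAAT boxes (CCAAT or ATTGG) and CHR letters (TTTGAA or TTCAAA), searched on both strands.
Kif5c: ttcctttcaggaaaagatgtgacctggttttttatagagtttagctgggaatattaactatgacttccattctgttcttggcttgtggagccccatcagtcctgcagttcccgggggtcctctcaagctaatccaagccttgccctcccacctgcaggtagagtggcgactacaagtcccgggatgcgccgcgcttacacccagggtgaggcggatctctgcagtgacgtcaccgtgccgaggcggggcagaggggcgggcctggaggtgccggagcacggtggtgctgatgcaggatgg
Dync1h1: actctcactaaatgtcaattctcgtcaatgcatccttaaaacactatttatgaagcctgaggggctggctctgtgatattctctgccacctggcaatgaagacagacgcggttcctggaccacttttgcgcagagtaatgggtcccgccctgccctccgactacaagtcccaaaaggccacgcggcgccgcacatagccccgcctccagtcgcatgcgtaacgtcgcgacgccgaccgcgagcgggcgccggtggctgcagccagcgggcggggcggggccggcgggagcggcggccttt
Kif15: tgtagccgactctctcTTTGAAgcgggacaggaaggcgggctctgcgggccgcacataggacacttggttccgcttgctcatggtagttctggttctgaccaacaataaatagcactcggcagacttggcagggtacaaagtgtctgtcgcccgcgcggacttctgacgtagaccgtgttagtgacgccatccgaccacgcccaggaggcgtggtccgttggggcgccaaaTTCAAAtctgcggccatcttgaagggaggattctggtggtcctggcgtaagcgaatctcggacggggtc
Kif2c: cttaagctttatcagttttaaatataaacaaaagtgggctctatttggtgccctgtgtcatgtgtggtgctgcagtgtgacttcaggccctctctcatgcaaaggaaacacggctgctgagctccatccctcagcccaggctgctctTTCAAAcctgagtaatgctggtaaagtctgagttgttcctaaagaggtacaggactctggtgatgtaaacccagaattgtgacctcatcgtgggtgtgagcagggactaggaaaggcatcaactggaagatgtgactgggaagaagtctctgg
Kif18b: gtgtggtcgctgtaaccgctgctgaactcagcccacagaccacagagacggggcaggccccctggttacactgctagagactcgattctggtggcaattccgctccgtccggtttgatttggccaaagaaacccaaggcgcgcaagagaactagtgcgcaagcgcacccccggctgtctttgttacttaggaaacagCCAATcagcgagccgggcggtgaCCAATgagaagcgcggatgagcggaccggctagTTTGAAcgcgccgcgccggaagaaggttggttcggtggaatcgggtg
The Kif5c and Dync1h1 windows held neither motif, Kif15 held 2 CHR matches, Kif2c 1, and Kif18b 2 CCAAT boxes and 1 CHR match. RefSeq windows were matched for 41 of the 53 motor genes, with 48 windows in all. CHR letters lay in 9 of 10 windows of mitotic kinesin genes and in 2 of 25 windows of transport genes, against 17.9% of all 32851 windows in the table. A CCAAT box and a CHR match together lay in 6 mitotic windows and in 0 transport windows, against 6.95% of all windows. The REST element has a left part with the letters CAGCACC (or GGTGCTG) and a right part with GGACAG (or CTGTCC). The left letters lay in 8 and the right letters in 8 of the 25 transport windows, against 7.14% and 22.2% of all windows. Of the 10 mitotic windows, 1 held the left and 2 the right letters. Among the windows shown, Kif5c and Kif2c held the left letters and Kif15 the right letters. These matches describe the letters only.

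The motor genes differed between the lines in both directions. Differences are Hdh109/109 minus Hdh7/7 on the log2 scale, tested with limma over all 15224 probes with Benjamini-Hochberg adjustment, and a gene is called at an adjusted p under 0.05. Averaged over the transfection states, 9 of 38 motor genes were called higher and 11 lower in Hdh109/109 cells, where 30.0% and 30.8% of all 8487 genes tested were called. The median difference was -0.04 over the motor genes and -0.02 over all genes. With DNRest 4 were higher and 8 were lower (19.9% and 19.3% of all genes), the empty vector state gave 7 and 8 (23.9% and 22.4%), and without transfection the counts were 5 and 6 (18.1% and 20.9%). Median scaling in place of quantile normalization moved the median of all genes by 0.24 in the average, 0.15 with DNRest, 0.60 with the empty vector and -0.03 without transfection. It gave 13 higher and 5 lower in the average (37.8% and 12% of all genes), and 4 and 2 for DNRest cells (16.7% and 6.4%). The empty vector state then gave 15 and 2 (42.9% and 4.45%), and 4 and 3 were called without transfection (9.85% and 11.9%). The split between higher and lower thus rests on the scaling, for the motor genes as for all genes. Of the 20 averaged calls 13 were kept under median scaling, and Kif3a, Kif3c, Dynll2, Dctn1, Dctn3, Kif18b and Kif22, all lower, were lost. Without the 3 arrays of high background the average gave 8 higher and 12 lower, and the share of all genes was not counted there. Of the 38 genes 32 were detected on all 12 arrays, with 8 higher and 11 lower in the average (27.0% and 33.9% of all genes so detected). Among these 32, 4 and 7 were called with DNRest (17.3% and 20.7% of all genes so detected). The empty vector state gave 5 and 8 (19.3% and 25.1%), and 5 and 6 were called without transfection (17.5% and 21.3%). The other 6 (Dctn2, Dynlrb2, Kif13a, Kif21b, Kif24 and Kif2a) were detected on 5 arrays or fewer and undetected in whole groups, so no averaged line difference is given for them.

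**Figure D1:**
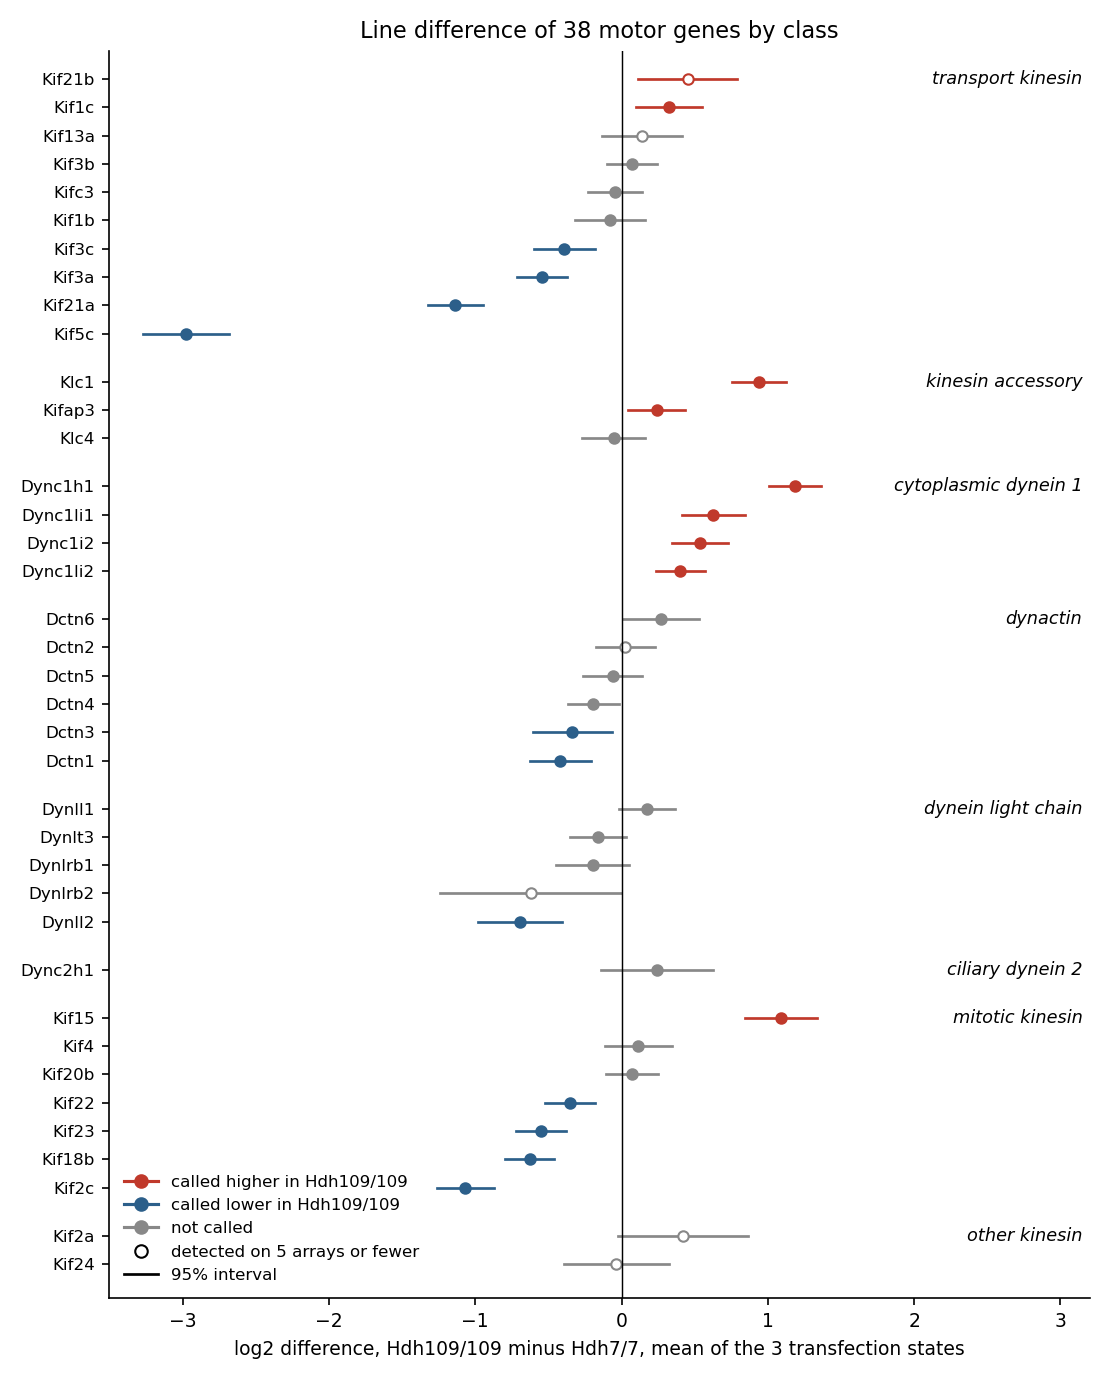
Line difference of the 38 tested motor genes (horizontal axis, log2, Hdh109/109 minus Hdh7/7, mean of the 3 transfection states), grouped by role, with 95% intervals from the limma fit and open points for 6 genes detected on 5 arrays or fewer, whose fitted values are no sizes. Kif5c lies at -2.98, far left of every other motor gene, all 4 cytoplasmic dynein 1 genes lie to the right of 0, and mitotic kinesins lie on both sides.

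Kif5c, a kinesin-1 heavy chain enriched in neurons, had the largest difference of any motor gene. Its log2 intensity was 7.23 and 6.79 in Hdh109/109 cells with DNRest, 6.74 and 6.95 with the empty vector and 6.53 and 7.17 without transfection, against 9.92 and 9.90, 9.58 and 9.95, and 9.99 and 9.94 in Hdh7/7 cells. All 6 Hdh109/109 arrays lay below all 6 Hdh7/7 arrays, and the probe was detected on every array. The averaged difference was -2.98 ± 0.13 (SE; 7.87-fold lower; limma adjusted p = 3.38e-08), with -2.90 with DNRest, -2.92 with the empty vector and -3.12 without transfection. The other heavy chain genes, Kif5a and Kif5b, had no tested probe.

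Klc1, the light chain that links kinesin-1 to cargo, went the other way. Its log2 intensity was 9.78 and 9.63 in Hdh109/109 cells with DNRest, 9.44 and 9.47 with the empty vector and 9.56 and 9.59 without transfection, against 8.96 and 9.02, 8.47 and 8.19, and 8.72 and 8.47 in Hdh7/7 cells. The lines did not overlap. The averaged difference was 0.94 ± 0.08 (SE; limma adjusted p = 6.69e-06), and a second Klc1 probe gave 0.39 (adjusted p = 0.00337). Klc4, another light chain gene, differed by -0.05 and was not called.

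**Figure D2:**
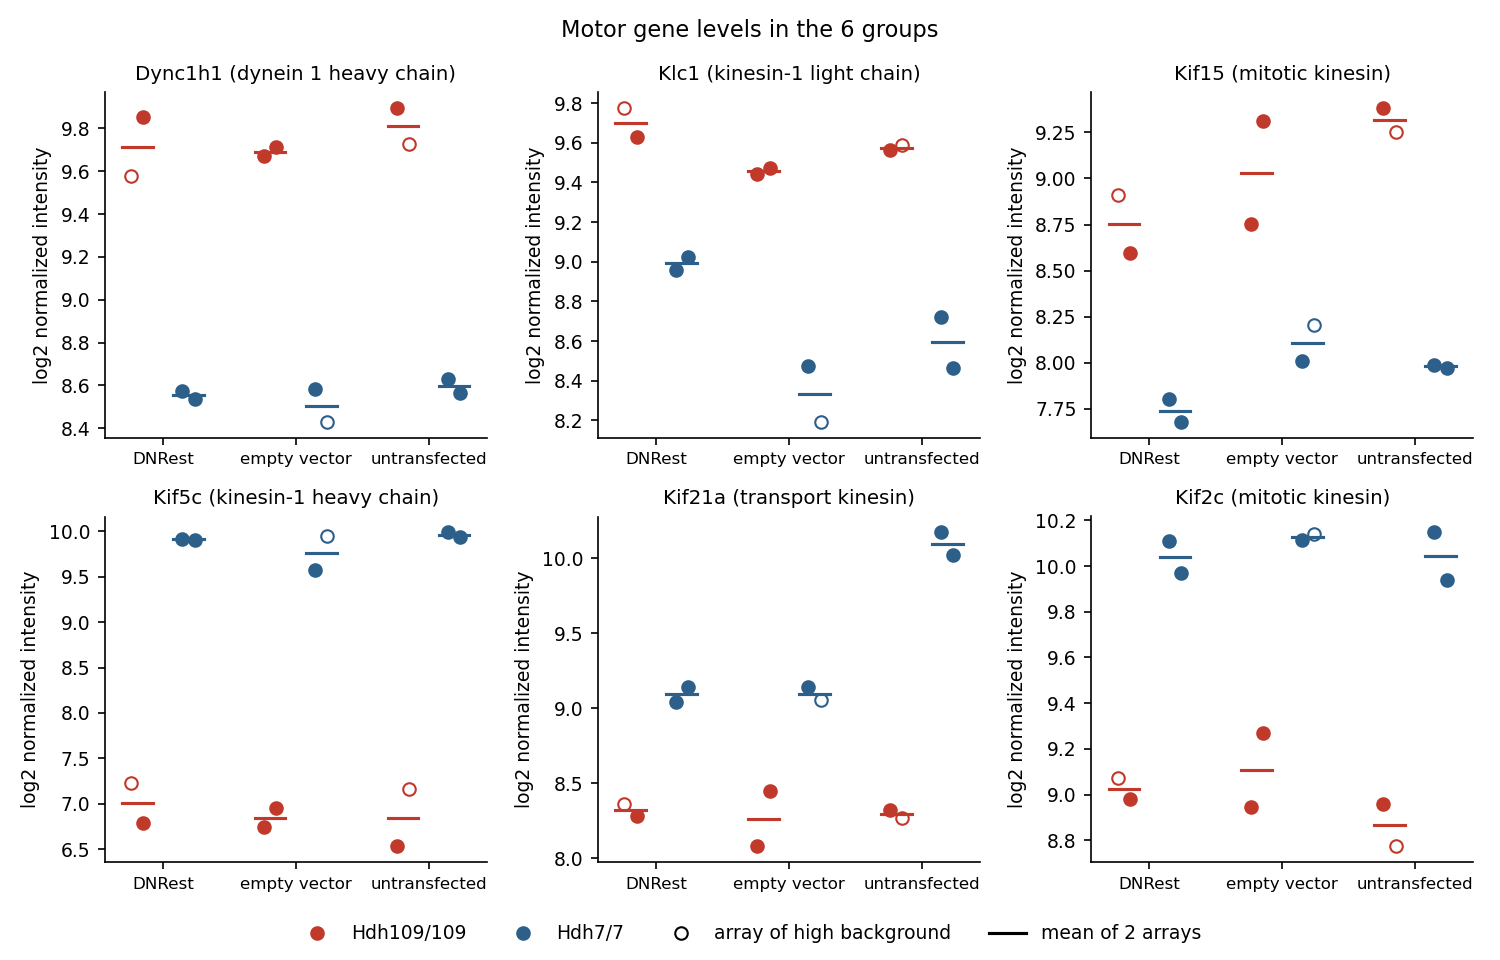
Log2 normalized intensity (vertical axes) of 6 motor genes on each array, by transfection state, with Hdh109/109 in red and Hdh7/7 in blue, horizontal bars for the mean of 2 arrays and open points for the 3 arrays of high background. The lines separate on every panel, with Hdh109/109 above for Dync1h1, Klc1 and Kif15 and below for Kif5c, Kif21a and Kif2c.

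Kif21a, a plus-end-directed kinesin that restrains microtubule growth, was the other strongly lower transport kinesin. Its log2 intensity was 8.36 and 8.28 in Hdh109/109 cells with DNRest, 8.08 and 8.45 with the empty vector and 8.32 and 8.27 without transfection, against 9.04 and 9.14, 9.14 and 9.06, and 10.17 and 10.02 in Hdh7/7 cells. The Hdh109/109 arrays stayed near one level, while untransfected Hdh7/7 cells stood above the transfected ones. The line difference was -0.77 with DNRest, -0.83 with the empty vector and -1.80 without transfection (limma adjusted p = 0.00259, 0.00142 and 9.29e-06). Under median scaling the first 2 were not called (adjusted p = 0.229 and 0.778). A second Kif21a probe averaged -0.17 and was not called (adjusted p = 0.388).

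Kinesin-2, which joins Kif3a with Kif3b or Kif3c and works in cilia and axons, was partly lower. Kif3a ranged from 9.59 to 9.88 with a median of 9.70 in Hdh109/109 cells, against 10.07 to 10.52 with a median of 10.27 in Hdh7/7 cells. The ranges did not overlap, and the averaged difference was -0.54 ± 0.08 (SE; limma adjusted p = 0.00018). A dimmer Kif3a probe was undetected on all 6 Hdh109/109 arrays and was at least 1.87-fold lower there. That probe passed the filter through Hdh7/7 arrays alone, so it is no separate support. Kif3c fell by 0.39 (adjusted p = 0.00529) at its brightest probe. Of its other 3 tested probes 2 were higher in Hdh109/109 cells, by 0.31 and by at least 1.12-fold, and 1 was called lower, each past the threshold. The probe given as at least 1.12-fold passed the filter through Hdh109/109 arrays alone. The gene has no settled direction. Kifap3, the accessory subunit of kinesin-2, was higher by 0.24 (adjusted p = 0.0362), a call kept in 5 of the 12 fits that leave out 1 array. Kif3b, the usual partner of Kif3a, averaged 0.07 and was not called, and was lower by -0.39 without transfection (adjusted p = 0.0435), a call kept in 4 of the 12 fits that leave out 1 array.

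The remaining transport kinesins moved little or were near background. Kif1c, a kinesin-3 motor, was higher by 0.32 at its brightest probe (adjusted p = 0.0194), while its other probe was lower by -1.05 (adjusted p = 1.6e-05), so the gene has no settled direction. Kif1b, which carries synaptic vesicle precursors and mitochondria, averaged -0.08 and was not called at its brightest probe, and 1 of its other 2 probes gave -0.44 (adjusted p = 0.000656). Kif21b, related to Kif21a, was undetected on all 4 DNRest arrays and both Hdh7/7 empty vector arrays. It is counted higher in the average and with the empty vector, calls that rest on those undetected values. Kifc3, a minus-end-directed kinesin, averaged -0.05 and was not called, and Kif13a was not called. Across the motor genes, 15 had more than 1 tested probe, 10 of them with all probes of 1 sign in the averaged difference and 2 with calls in opposite directions, Kif1c and Kif3c.

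Cytoplasmic dynein 1 was the 1 class whose tested members were all called in 1 direction in the average. All 4 were higher, where 30.0% of all genes were called higher, and with 4 genes a share is coarse. In single states 2 were called higher with DNRest, 3 with the empty vector and 2 without transfection (19.9%, 23.9% and 18.1% of all genes). The heavy chain gene Dync1h1, which holds the motor domain, had a log2 intensity of 9.58 and 9.85 in Hdh109/109 cells with DNRest, 9.67 and 9.71 with the empty vector and 9.90 and 9.73 without transfection, against 8.57 and 8.54, 8.58 and 8.43, and 8.63 and 8.57 in Hdh7/7 cells. The lines were separated in every state, and the averaged difference was 1.19 ± 0.08 (SE; 2.27-fold higher; limma adjusted p = 8.29e-07). The difference was 1.16 with DNRest, 1.19 with the empty vector and 1.21 without transfection.

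Dync1li1, a light intermediate chain that binds cargo adaptors, had 7.56 and 7.60 in Hdh109/109 cells with DNRest, 7.87 and 8.00 with the empty vector and 8.01 and 7.86 without transfection, against 7.37 and 7.44, 7.48 and 7.00, and 7.00 and 6.84 in Hdh7/7 cells. Its lines were close with DNRest and apart without transfection. It was higher by 0.63 ± 0.10 in the average (SE; limma adjusted p = 0.000313), but its state differences were 0.17 with DNRest, 0.69 with the empty vector and 1.01 without transfection, and the first was not called (adjusted p = 0.446). The empty vector call was lost without Hdh7/7 empty vector replicate 2 (adjusted p = 0.0566) and without the 3 arrays of high background (0.45, adjusted p = 0.0993). Dync1li2, the other light intermediate chain, was higher by 0.40 (adjusted p = 0.0011), and by 0.62 with DNRest (adjusted p = 0.00422). Dync1i2, the intermediate chain that contacts dynactin, was higher by 0.54 (adjusted p = 0.000391), while its second probe averaged -0.19 and was not called. The fifth gene of the class, Dync1i1, had no tested probe. With median scaling the averages were 1.47, 1.00, 0.49 and 0.73 in the order Dync1h1, Dync1li1, Dync1li2 and Dync1i2, all called and all above the 0.24 shift of the median gene.

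Of the 6 genes of dynactin, dynein's activator, 0 were called higher and 2 lower in the average, with a median of -0.13, where 30.0% and 30.8% of all genes were called. Neither lower call was kept under median scaling, and dynactin was not compared with dynein by a test. Dctn1, the large subunit that binds microtubules and dynein, had 8.62 and 8.57 in Hdh109/109 cells with DNRest, 8.34 and 7.85 with the empty vector and 8.59 and 8.71 without transfection, against 8.94 and 8.80, 8.73 and 8.75, and 8.95 and 9.02 in Hdh7/7 cells. Every Hdh109/109 array lay below every Hdh7/7 array, the nearest by little. The difference was -0.42 ± 0.09 (SE; limma adjusted p = 0.00346), -0.65 with the empty vector (adjusted p = 0.00992) and not called in the other states. The empty vector call was lost without Hdh109/109 empty vector replicate 2 (adjusted p = 0.0533) and without the 3 arrays of high background (adjusted p = 0.0658). Under median scaling it was -0.09 in the average and 0.11 with the empty vector, neither called. The median gene then stood at 0.24 and 0.60. A second Dctn1 probe averaged -0.04 with quantile normalization. Dctn3 was lower by -0.34 (adjusted p = 0.0352), a call kept in 4 of the 12 fits that leave out 1 array. Dctn4, Dctn5 and Dctn6 averaged -0.19, -0.06 and 0.27 and were not called. Dctn2 was detected on the 2 Hdh109/109 empty vector arrays alone. It passed the filter through those arrays alone, and it is counted higher with the empty vector and lower with DNRest. The DNRest call sets values below background against each other.

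Among the dynein light chains, which serve dynein and other complexes, 1 of 5 was called in the average, where 30.0% of all genes were called higher and 30.8% lower. Dynll2 ranged from 6.87 to 7.86 with a median of 7.70 in Hdh109/109 cells, against 7.85 to 8.60 with a median of 8.29 in Hdh7/7 cells, with an averaged difference of -0.70 ± 0.13 (SE; limma adjusted p = 0.00107), -1.04 with the empty vector (adjusted p = 0.00437) and -0.66 at its second probe (adjusted p = 0.000399). The highest Hdh109/109 array lay level with the lowest Hdh7/7 array. Dynll1, its close relative, averaged 0.17, Dynlrb1 -0.20 and Dynlt3 -0.16, and none was called. Dynlrb2, undetected on all 6 Hdh109/109 arrays and detected on 3 Hdh7/7 arrays, was not called either. Dync2h1, the heavy chain of ciliary dynein, averaged 0.24 and was not called. Kif2a and Kif24 were detected on 3 and 2 arrays and were not called.

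Mitotic kinesins split, with Kif15 higher and 4 of 7 lower in the average (median -0.35). Kif15, a spindle motor that pushes the poles apart, had a log2 intensity of 8.91 and 8.60 in Hdh109/109 cells with DNRest, 8.75 and 9.31 with the empty vector and 9.38 and 9.25 without transfection, against 7.80 and 7.68, 8.01 and 8.20, and 7.99 and 7.97 in Hdh7/7 cells. The lines did not overlap, and the difference was 1.09 ± 0.11 (SE; 2.13-fold higher; limma adjusted p = 1.69e-05). Kif2c, which removes tubulin from microtubule ends at centromeres, had 9.07 and 8.98 in Hdh109/109 cells with DNRest, 8.95 and 9.27 with the empty vector and 8.96 and 8.77 without transfection, against 10.11 and 9.97, 10.11 and 10.14, and 10.15 and 9.94 in Hdh7/7 cells. It was lower on every Hdh109/109 array, by -1.07 ± 0.09 in the average (2.10-fold lower; adjusted p = 3.55e-06). Both windows printed above hold CHR letters, whose part in these line differences was not tested.

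Kif18b, which acts on astral microtubules, was lower by -0.63 ± 0.08 (adjusted p = 6e-05), and its second probe gave -0.69. Kif23, needed for cytokinesis, was lower by -0.55 (adjusted p = 0.000148), and Kif22, a chromosome-binding kinesin, by -0.35 (adjusted p = 0.00305). Without transfection these 3 differed by -0.35, -0.35 and -0.30 and were not called. Under median scaling the averaged calls of Kif18b and Kif22 were lost (-0.36, adjusted p = 0.0848, and -0.18, adjusted p = 0.416). Kif4, another chromosome-binding kinesin, averaged 0.11 and Kif20b 0.07, and neither was called. Kif4 was higher by 0.53 without transfection (adjusted p = 0.0425), a call kept in 4 of the 12 fits that leave out 1 array. Kif11, Kif18a and Kifc5b had no tested probe.

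Counted side by side, 8 of 23 transport genes were higher and 6 lower in the average (median 0.03), against 1 and 4 of 7 mitotic kinesins (median -0.35), where 30.0% and 30.8% of all genes were called. The transport counts are 34.8% and 26.1% of their class, near those shares, and with 7 mitotic genes a share is coarse. Median scaling gave 10 and 2 for transport genes and 1 and 2 for mitotic kinesins, against 37.8% and 12.0% of all genes. The classes were not compared by a test. With DNRest the counts were 3 and 4 for transport and 1 and 4 for mitotic genes, with the empty vector 6 and 4 and 1 and 3, and without transfection 3 and 5 and 2 and 1. Of all genes, 19.9% and 19.3% were called with DNRest, 23.9% and 22.4% with the empty vector and 18.1% and 20.9% without transfection. As a class level, each gene's deviation from its mean over the 12 arrays was averaged over the class. Mitotic minus transport was -0.10 and -0.17 in Hdh109/109 cells with DNRest, -0.15 and 0.16 with the empty vector and -0.06 and -0.11 without transfection. In Hdh7/7 cells it was 0.16 and 0.09, 0.16 and 0.44, and -0.19 and -0.23 in the same order. The untransfected Hdh7/7 arrays were the lowest and the transfected Hdh7/7 arrays among the highest. The line difference of this balance, Hdh109/109 minus Hdh7/7, was -0.26 with DNRest, -0.30 with the empty vector and 0.12 without transfection, so its direction was not the same in all states. It has no test.

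**Figure D3:**
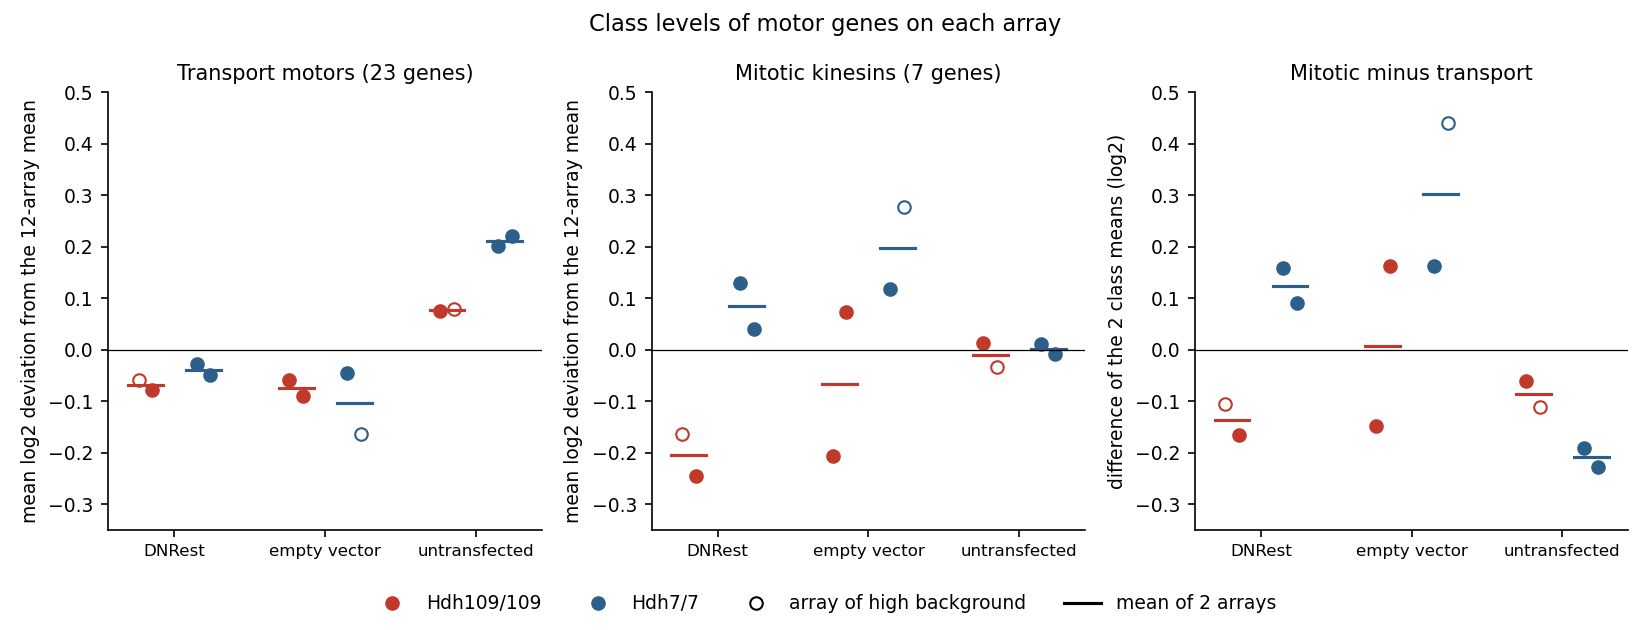
Class level on each array (vertical axes, mean log2 deviation from the 12-array mean) for 23 transport genes, for 7 mitotic kinesins and for mitotic minus transport, by transfection state, with Hdh109/109 in red, Hdh7/7 in blue, bars for the mean of 2 arrays and open points for arrays of high background. Transport levels were highest in untransfected Hdh7/7 cells, at 0.20 and 0.22, and the balance was below 0 in both lines without transfection.

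Of the 38 motor genes, 7 were called in 1 direction in all 3 states. Dync1h1, Klc1 and Kif15 were higher and Kif5c, Kif21a, Kif3a and Kif2c lower, which is 7.89% and 10.5% of the motor genes, against 10.2% and 9.98% of all genes tested. Without transfection all 7 kept their call when any 1 array was left out. Under median scaling Kif5c, Dync1h1, Klc1 and Kif15 were called in all 3 states. Kif3a was then called in no state (adjusted p = 0.562 with DNRest, 0.956 with the empty vector and 0.11 without transfection), Kif21a without transfection alone, and Kif2c was lost with the empty vector (adjusted p = 0.299). With quantile normalization Kif3a lost it with DNRest when a DNRest array was left out (highest adjusted p 0.14).

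DNRest changed no motor gene past the threshold. In Hdh109/109 cells 0 of 38 were called by limma against the empty vector (0.189% of all genes), where 6 had an unadjusted p under 0.05 (15.8%, against 11.2% of all genes). In Hdh7/7 cells 0 were called (0.118% of all genes), where 2 had such a p (5.26%, against 6.02% of all genes). For the difference between the lines in this response 0 were called (0% of all genes), with 1 at an unadjusted p under 0.05 (2.63%, against 6.81% of all genes). Without Hdh7/7 empty vector replicate 1, 3 were called in Hdh7/7 cells and 1 for the difference between the lines, and without Hdh109/109 empty vector replicate 1, 1 was called in Hdh109/109 cells. Kif5c differed between DNRest and empty vector by 0.16 in Hdh109/109 cells (95% interval -0.35 to 0.67) and by 0.15 in Hdh7/7 cells (-0.36 to 0.66). Dync1h1 differed by 0.02 (-0.28 to 0.33) and 0.05 (-0.26 to 0.36). The largest difference of a detected motor gene in Hdh7/7 cells was that of Klc1, with 8.96 and 9.02 with DNRest against 8.47 and 8.19 with the empty vector, 0.66 higher with an interval of 0.34 to 0.98 (limma adjusted p = 0.384). The second Klc1 probe did not show this rise, with means of 7.67 with DNRest and 7.69 with the empty vector. In Hdh109/109 cells Dynll2 had 7.73 and 7.86 with DNRest against 7.27 and 6.87 with the empty vector, a difference of 0.72 (adjusted p = 0.353), and Dctn1 differed by 0.50 (adjusted p = 0.359). Their second probes differed less there, with means of 6.97 against 6.85 for Dynll2 and 7.89 against 7.67 for Dctn1.

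With quantile normalization, motor genes were called with the empty vector against untransfected cells no more often than all genes. In Hdh7/7 cells 1 of 38 was higher and 4 were lower (17.9% of all genes called in either direction, 6.63% higher and 11.3% lower). All 4 were transport genes, which is 17.4% of the 23 transport genes. In Hdh109/109 cells 0 of 38 were called (3.36% of all genes), with 5 at an unadjusted p under 0.05 (13.2%, against 19.5% of all genes). Median scaling, which moved the median of all genes by -0.50 in Hdh7/7 cells, gave 0 higher and 11 lower there (28.9%), with 0.306% of all genes higher and 23.7% lower. Of the 23 transport genes 10 were then lower (43.5%), so the comparison with all genes rests on the scaling, and it has no test. Without the 3 arrays of high background 2 remained in Hdh7/7 cells with quantile normalization, and a fit of the 4 compared Hdh7/7 arrays by themselves called 0.

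Kif21a fell to 9.14 and 9.06 in Hdh7/7 cells with the empty vector, against 10.17 and 10.02 without transfection, a difference of -1.0 ± 0.15 (SE; limma adjusted p = 0.00274). In Hdh109/109 cells it had 8.08 and 8.45 with the empty vector against 8.32 and 8.27 without transfection, a difference of -0.03. The call in Hdh7/7 cells held in all 12 fits that leave out 1 array and without the 3 arrays of high background (adjusted p = 0.0425). Its second probe fell by 1.25 in Hdh7/7 cells (adjusted p = 0.0168).

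With DNRest, Kif21b had 5.45 and 5.69 in Hdh109/109 cells and 5.04 and 4.90 in Hdh7/7 cells, undetected on all 4 arrays. It had 5.97 and 6.13 in Hdh109/109 cells with the empty vector against 6.52 and 6.19 without transfection. It had 5.59 and 4.68 in Hdh7/7 cells with the empty vector, undetected on both arrays, against 6.66 and 6.37 without transfection. That is at least 1.11-fold lower, and the Kif21b call (limma adjusted p = 0.00836) rests on undetected values. Kif3b fell to 8.08 and 7.92 in Hdh7/7 cells with the empty vector, against 8.46 and 8.66 without transfection (-0.56, adjusted p = 0.02), and in Hdh109/109 cells it had 8.38 and 8.21 against 8.16 and 8.18. Its DNRest values were 8.27 and 8.37 in Hdh109/109 cells and 8.06 and 7.98 in Hdh7/7 cells. Kif3b was thus lowest in the transfected Hdh7/7 cells. Kifap3, its partner, fell to 8.70 and 8.76 against 9.44 and 9.18 (-0.58, adjusted p = 0.0273), and its difference in Hdh109/109 cells was also -0.58, with 8.83 and 9.03 against 9.63 and 9.38 (adjusted p = 0.0755). With DNRest Kifap3 had 8.78 and 8.77 in Hdh109/109 cells and 8.54 and 8.37 in Hdh7/7 cells, so untransfected cells were highest in both lines. Kif18b rose to 9.59 and 9.87 against 9.22 and 9.34 (0.45, adjusted p = 0.0424), and under median scaling the sign turned (-0.07, not called, with the median gene at -0.50). In Hdh109/109 cells Kif18b had 8.94 and 8.96 with DNRest, 8.89 and 8.89 with the empty vector and 8.96 and 8.91 without transfection, and in Hdh7/7 cells with DNRest 9.66 and 9.61. Only the Kif21a call among these 5 was kept in all 12 fits that leave out 1 array. The calls of Kif21b, Kif3b, Kifap3 and Kif18b were kept in 11, 9, 8 and 3 of them, with highest adjusted p-values of 0.0717, 0.119, 0.177 and 0.251.

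The response to the empty vector differed between the lines for 2 of 38 motor genes, both higher in Hdh109/109 cells relative to Hdh7/7 cells (14.0% of all genes called in either direction). Kif21a differed by 0.97 ± 0.21 (SE; limma adjusted p = 0.0174) and Kif3b by 0.68 ± 0.19 (adjusted p = 0.0431). Neither was called without the 3 arrays of high background (adjusted p = 0.148 and 0.252). The Kif21a call was lost without Hdh7/7 untransfected replicate 1 or Hdh109/109 untransfected replicate 2, and the Kif3b call was kept in 1 of the 12 fits that leave out 1 array.

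**Figure D4:**
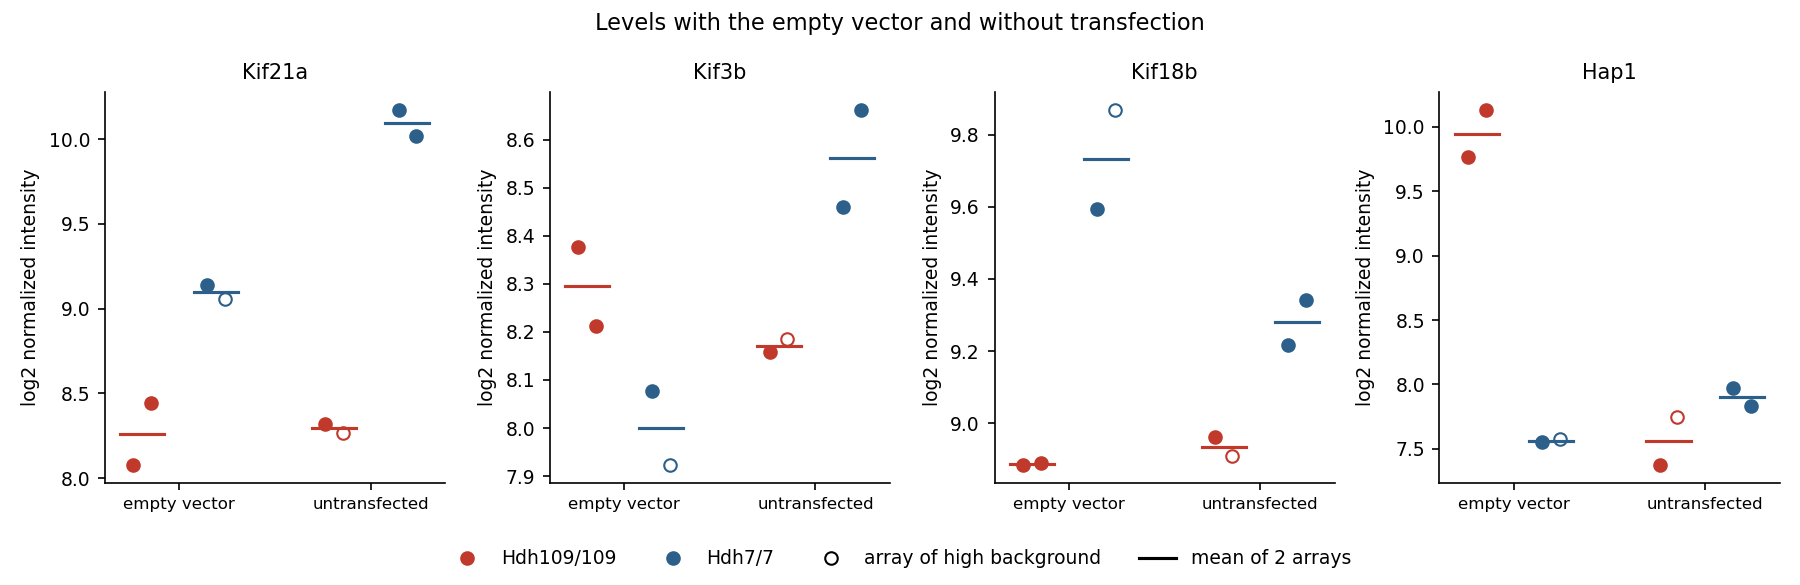
Log2 normalized intensity (vertical axes) of Kif21a, Kif3b, Kif18b and the adaptor gene Hap1 on each array with the empty vector and without transfection, Hdh109/109 in red and Hdh7/7 in blue, with bars for the mean of 2 arrays and open points for arrays of high background. Kif21a and Kif3b are lower with the empty vector in Hdh7/7 cells, and Hap1 is higher with it in Hdh109/109 cells.

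Of 30 listed adaptors and regulators that couple the motors to cargo 24 were tested, with 8 higher and 8 lower in the average and a median of -0.09. That is 33.3% each way, near the 30.0% and 30.8% of all genes. Htt, the gene with the repeat, was detected on 0 Hdh109/109 arrays and 5 Hdh7/7 arrays, and was at least 1.90-fold lower. Its probe passed the filter through Hdh7/7 arrays alone, and its place among the lower genes rests on undetected values. Hook2, a dynein adaptor, was higher by 1.31 (adjusted p = 7.84e-05) and Trak1, which links mitochondria to kinesin-1 and dynein, by 0.73 (adjusted p = 0.000788). Rilp, which brings dynein to late endosomes, was lower by -1.18 (adjusted p = 1.71e-05) and Fez1, a kinesin-1 adaptor, by -0.75 (adjusted p = 8.04e-06).

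Hap1, the huntingtin partner that binds dynactin and kinesin light chains, had log2 intensities of 9.56 and 9.76 in Hdh109/109 cells with DNRest, 9.76 and 10.13 with the empty vector and 7.38 and 7.75 without transfection. In Hdh7/7 cells it had 7.38 and 7.38, 7.55 and 7.58, and 7.97 and 7.84 in the same order. The transfected Hdh109/109 arrays stood above all others, and the untransfected lines differed by -0.34, which was not called (adjusted p = 0.15). With the empty vector it was 5.22-fold higher than without transfection in Hdh109/109 cells (2.39 ± 0.17 log2, SE; limma adjusted p = 3.61e-05), and the response differed between the lines by 2.73 (adjusted p = 0.00022). Ndel1, a dynein regulator, also responded differently, by 0.87 (adjusted p = 0.029).

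Of 26 listed mitosis genes outside the motor families 21 were tested, with 3 higher and 9 lower in the average (14.3% and 42.9%, against 30.0% and 30.8% of all genes) and a median of -0.05. Median scaling gave 3 and 2 (14.3% and 9.52%, against 37.8% and 12% of all genes). The excess of lower calls was thus not kept, while the share called higher stayed below that of all genes. With DNRest 1 was higher and 5 were lower (19.9% and 19.3% of all genes). The empty vector state gave 3 and 7 (23.9% and 22.4%), and without transfection the counts were 3 and 3 (18.1% and 20.9%). Ttk, a spindle checkpoint kinase, was higher by 1.05 (adjusted p = 3.14e-05), and Ect2, which starts cytokinesis, was lower by -0.96 (adjusted p = 2.81e-05). Ndc80 and Nuf2, subunits of 1 kinetochore complex, averaged 0.79 and -0.54 (adjusted p = 0.00019 and 0.000376). Without transfection Nuf2 was not lower, with 7.91 and 7.94 in Hdh109/109 cells against 7.59 and 7.47 in Hdh7/7 cells (0.39, adjusted p = 0.0607), so its averaged direction comes from the transfected states. Nuf2 rose in Hdh7/7 cells with the empty vector (1.02, adjusted p = 0.0025), and its response differed between the lines by -1.50 (adjusted p = 0.00245). Anln and Cdc20 were lower by -0.50 and -0.47.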

How the data were processed

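The authors deposited a non-normalized table with a linear signal intensity and a detection p-value for each probe on each of the arrays. RNA was, per the labels' protocols, extracted with Trizol, amplified and labelled with biotin. The submitters' processing notes name limma, with no version. A second deposited table was not used, because its rows did not match the probe identifiers. Here the deposited intensity was background-corrected by normexp with an offset of 16, quantile-normalized and log2-transformed, and a probe was tested where at least 2 of the 12 arrays had a detection p below 0.01 (R 4.3.3, limma 3.58.1). All arrays entered 1 fit with a mean per group and 6 residual degrees of freedom. The 10 comparisons used two-sided moderated tests, adjusted over 15224 probes (Benjamini-Hochberg). Where a probe was undetected in a whole group, a bound ("at least") is given, from the means of normalized log2 values and the lowest detected signal per array. In data simulated for the untransfected line comparison on 15224 probes, 50 probes were changed at each size and the others were left unchanged. Of these, 0%, 70%, 100% and 100% were recovered at changes of 0.5, 1, 2 and 3 log2 units. In the real comparison 5422 probes were called, which makes the adjustment less strict, so these shares do not carry over to it.

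A gene is represented by its brightest tested probe. Values on every array are given for motor genes called with an absolute log2 difference of at least 1 between the lines without transfection or in the average, for those called in a transfection comparison, and for Kif5c, Klc1, Dync1h1 and Dctn1, and other members are given with their class. Other genes are the called members of the adaptor and mitosis lists with the largest averaged differences, up to 6 a list, and those whose response to the empty vector differed between the lines. The values of Klc1, Dynll2 and Dctn1 with DNRest against the empty vector were chosen after they were seen. Members and lists were chosen with earlier results of these data known. Alternatives were median scaling, no background correction, other detection filters, other arrays in the fit, a replicate block, a 2-fold minimum, all probes of a gene, the source name as genotype, leaving out each array and, chosen after seeing the data, leaving out the 3 arrays of high background and counting only genes detected on all 12 arrays. The number of arrays limits the precision.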

Additional observations from a re-analysis of the deposited data

Results flagged for a closer look

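The response to the empty vector (empty vector minus untransfected, Hdh109/109 minus Hdh7/7) differed between the lines, by a test of the difference itself, for 4 motor probes and 3 listed genes outside the motor families. Kif21a differed by 0.97 (limma adjusted p = 0.0174) and by 1.55 at its second probe (adjusted p = 0.0356), and both probes fell in Hdh7/7 cells with the empty vector. Kif3b differed by 0.68 (adjusted p = 0.0431). The second Dync1i2 probe differed by -1.79 (adjusted p = 0.0253), with a fall of -1.34 in Hdh109/109 cells (adjusted p = 0.0451), while the brightest Dync1i2 probe differed by 0.40 and was not called. Hap1 differed by 2.73 (adjusted p = 0.00022), Ndel1 by 0.87 (adjusted p = 0.029) and Nuf2 by -1.50 (adjusted p = 0.00245). Hdh7/7 empty vector replicate 2 and Hdh109/109 untransfected replicate 2, 2 of the 3 arrays of high background, enter each of these values, and without the 3 arrays the adjusted p was 0.148 for Kif21a and 0.252 for Kif3b at their brightest probes.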

How the results depend on the processing

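Over the alternatives, 175 counts of called motor genes stayed within 1.5 times the reported count and 45 did not, and of the named motor genes' line differences without transfection and in the average 406 kept their direction and call, 29 lost the call, 5 gained it and 2 turned. The 2 that turned were those of Kif21b without transfection (-0.16, not called), at 0.0011 without Hdh109/109 untransfected replicate 2 and 0.00163 without the 3 arrays of high background, and leaving out 1 array gave -0.316 to 0.0011. With the empty vector, the Dctn1 line difference also turned under median scaling (-0.65, and 0.11). The median gene then stood at 0.60, and Dctn1 less that median was -0.49. Without transfection 11 motor genes were called between the lines, against 7 with median scaling, 19 with no background correction, 18 among probes detected on all 12 arrays, 6 at 2-fold or more and 19 with all probes counted. At 2-fold or more, 5 were called with the empty vector, 4 with DNRest and 5 in the average, and median scaling gave 6 with DNRest. With the source name as genotype, 0 were called by limma in the average, with 0 motor genes at an unadjusted p under 0.05. For the empty vector in Hdh109/109 cells, 2 were called with no background correction, 2 among probes detected on all 12 arrays and 1 with all probes counted. In Hdh7/7 cells, 11 were called with median scaling, 8 with no background correction, 0 with the compared groups alone, 2 at 2-fold or more and 2 without the 3 arrays of high background. For the difference between the lines in this response the counts were 0 with the compared groups alone, 1 with the replicate block, 0 at 2-fold or more, 4 with all probes counted and 0 without the 3 arrays. The cause of these changes was not tested, except that a 2-fold minimum cannot call more genes by construction.

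Leaving out 1 array gave 8 to 19 calls between the lines without transfection, 12 to 18 with the empty vector, 8 to 15 with DNRest and 16 to 22 in the average. It gave 0 to 1 for DNRest in Hdh109/109 cells, 0 to 3 in Hdh7/7 cells and 0 to 1 for their difference, and 0 to 2 for the empty vector in Hdh109/109 cells, 1 to 8 in Hdh7/7 cells and 0 to 4 for their difference. Same-numbered arrays deviated together in 2 of 15 group pairs (correlations over 0.1, in a range from -0.445 to 0.359). The main fit did not pair arrays by number, and these correlations cannot exclude a shared culture or batch. The replicate block gave 10, 15, 12 and 20 calls between the lines without transfection, with the empty vector, with DNRest and in the average, and 4 for the empty vector in Hdh7/7 cells. Probes near background, such as those of Kif21b, Kif24, Kif2a and Dctn2, limit what can be read from their genes.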
